A study of Mus musculus with 144 samples.

Results

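The small intestine of nmrHAS2 mice was compared with that of CreER mice at 24 months of age. The comparison held 12 of the 144 libraries of the series, chosen by the tissue, age and genotype in their labels: 3 libraries each of nmrHAS2 females, CreER females, nmrHAS2 males and CreER males. The nmrHAS2 mice carry the hyaluronan synthase 2 gene of the naked mole-rat, and the CreER mice are the controls. In the published mouse model the transgene is switched on throughout the body by a tamoxifen-inducible Cre recombinase, which the controls carry without the transgene. Strain, treatment and the animal behind each library were not given in the labels used here, so all p-values measure the spread between these libraries. The series set out to find what changes in mice that make more hyaluronan, per its design text. The same contrast at 6 months, with 12 libraries, served as a reference.

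Hyaluronan is a long sugar polymer of the extracellular matrix that hyaluronan synthases build at the cell surface and push out of the cell. The small intestine changes along its length: the distal part takes bile acids back up and holds the most Paneth cells, which secrete defensins and lysozyme, whereas the pancreas lies against the proximal part. Between the epithelial cells sit intraepithelial lymphocytes, T cells with cytotoxic granules, and the interferon gamma that T cells release raises antigen presentation and guanylate-binding proteins in the epithelium around them. In whole tissue, fewer cells of a type and less RNA per cell cannot be told apart.

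The libraries held between 25316693 and 82501800 counts, and the villin gene Vil1 was expressed in each. Markers of the distal segment separated the libraries before any comparison of genotypes. Plb1, a brush border phospholipase, stood at 958, 517 and 632 CPM (counts per unit of library size, here scaled by TMM) in the female CreER libraries and at 1.32 or less in the other 9. The ileal bile acid transporter Slc10a2 stood at 25.1, 42.1 and 38.6 CPM in these 3 libraries and at 5.17 or less elsewhere. Fabp6, the ileal bile acid binding protein, stood at 2.05, 32.2 and 33.7 CPM against at most 0.783. None of the 12 libraries of 6 months held at least 10 CPM of 2 of these markers, the rule for a distal library, and among the old ones the 3 female CreER libraries alone did.

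**Figure D1:**
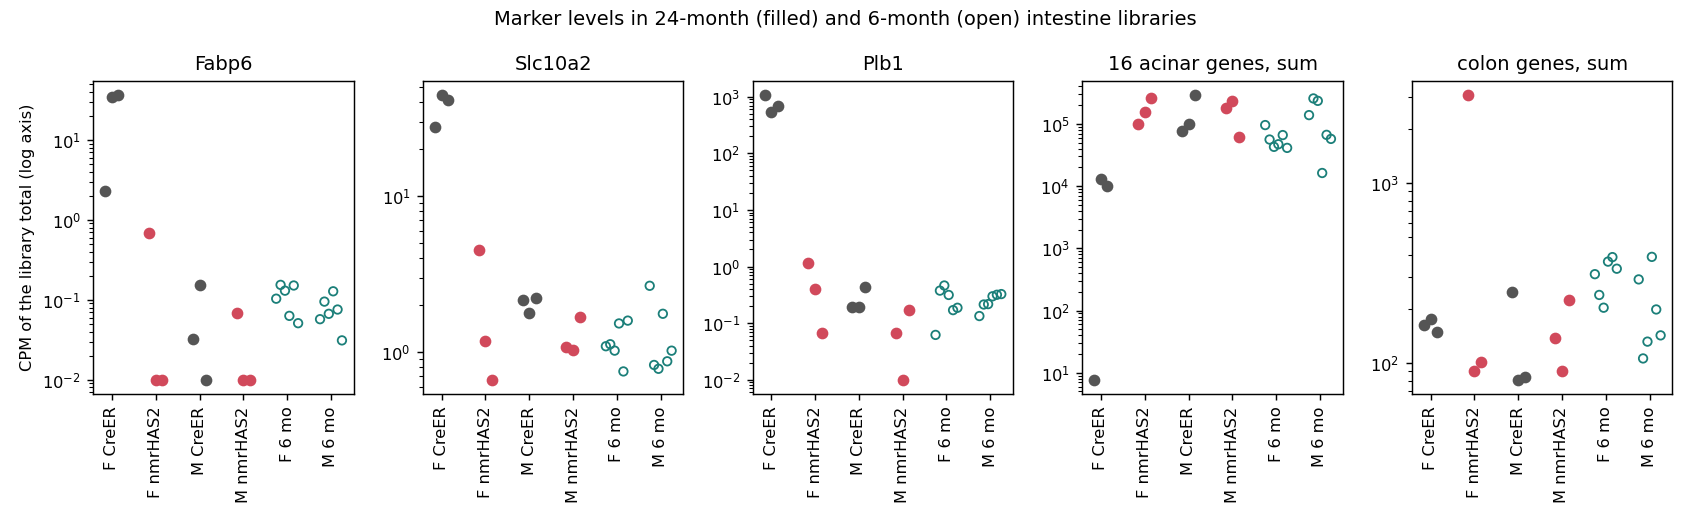
Levels of 3 distal markers, the sum of 16 pancreatic acinar genes and the sum of the colon genes in each library, in CPM of the library total on a log axis, with levels under 0.01 CPM drawn at 0.01. Each point is 1 library: filled points are 24 months, open points are 6 months with both genotypes, F is female and M is male. The 3 old female CreER points lie above all others for Slc10a2 and Plb1 and below all others for the acinar sum, and 1 old female nmrHAS2 library lies alone at 3077 CPM for colon genes.

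RNA of other tissues moved with the same split. The 16 pancreatic acinar genes took 0.000772, 1.28 and 0.989% of the counts in the female CreER libraries. They took 10.1, 15.4 and 25.6% in the female nmrHAS2, 7.79, 9.98 and 28.9% in the male CreER, and 17.8, 23 and 6.10% in the male nmrHAS2 libraries. Female CreER libraries 2 and 3 also held more fat cell RNA, with summed adipocyte genes at 1703 and 2020 CPM of the library total against 469.5 or less elsewhere. Female nmrHAS2 library 1 carried genes typical of the colon: Mptx1, a mucosal pentraxin, was at 1492 CPM there and at 0.596 or less in the other 11 libraries, against its label of small intestine. Genotype and segment therefore cannot be told apart in females. In males the distal markers were low in both genotypes, and the acinar share overlapped between them.

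The transgene checked the genotype labels. It was listed at 0.212, 0.149 and 0.385 CPM in the female CreER and at 17.2, 21.2 and 30.8 in the female nmrHAS2 libraries. In males it stood at 0.119, 0.263 and 0.0570 in CreER against 43.4, 13.9 and 3.87 in nmrHAS2. The groups did not overlap in either sex, and the male nmrHAS2 libraries spread over the widest range. Its log2 change was 6.73 ± 0.57 (SE, edgeR adjusted p = 4.2e-06), and 5.38 at 6 months. Mouse Has2 read higher by 1.53 ± 0.37 (edgeR adjusted p = 0.0225), from 0.570 to 1.64 CPM in CreER to 0.944 to 7.75 in nmrHAS2 libraries. Reads of the near-identical transgene can be counted as Has2, so the mouse gene's own change is uncertain, and its call was lost without female CreER library 1, male CreER library 1 or male nmrHAS2 library 1.

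Across the transcriptome, 1031 of 21117 genes tested (4.88%) differed between genotypes at 24 months by edgeR's quasi-likelihood test at an adjusted p under 0.05, 683 higher (3.23%) and 348 lower (1.65%) in nmrHAS2. The sexes gave these calls very unequally. In females alone 5295 genes (25.1%) were called. In males alone 1 gene (0.00474%) was called, the transgene. At an unadjusted p under 0.05 the males had 1304 genes (6.18%), 2.45% higher and 3.72% lower, and DESeq2 called 14 in them. The genotype effect itself differed between the sexes for 3088 genes (14.6%), with the male change the higher one for 5.38% and the lower one for 9.24% of genes tested. Counts were also simulated with a spread for each gene that was the same in both sexes. There edgeR recovered 35% of genes changed 2-fold and 83% of genes changed 4-fold in males, and 33 and 86% in females. Because the sexes shared this spread, the simulation cannot show whether the real male and female libraries had the same reach. The count of 1031 was 2018 without female nmrHAS2 library 1, 684 without male CreER library 1, 658 without female nmrHAS2 library 3, 631 and 473 without female CreER libraries 1 and 2, 423 without male CreER library 2 and 383 without male nmrHAS2 library 1.

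The female changes were not carried into the males. The 3391 genes called higher in females (16.1%) had a median change of -0.09 on the log2 scale in males, where 36.0% of them were also higher. The 1904 genes called lower in females (9.02%) had a male median of 0.16, and 27.3% of them were lower in males too. For all genes tested the male median was 0.01. Across genes the female and male changes had a Pearson correlation of -0.06 and a Spearman correlation of -0.21, given as a description because genes are not independent replicates. Of the 1031 genes called with both sexes together, 989 were also called in females with the same sign, 657 had a called difference between the sexes, and 304 had opposite signs in the sexes.

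**Figure D2:**
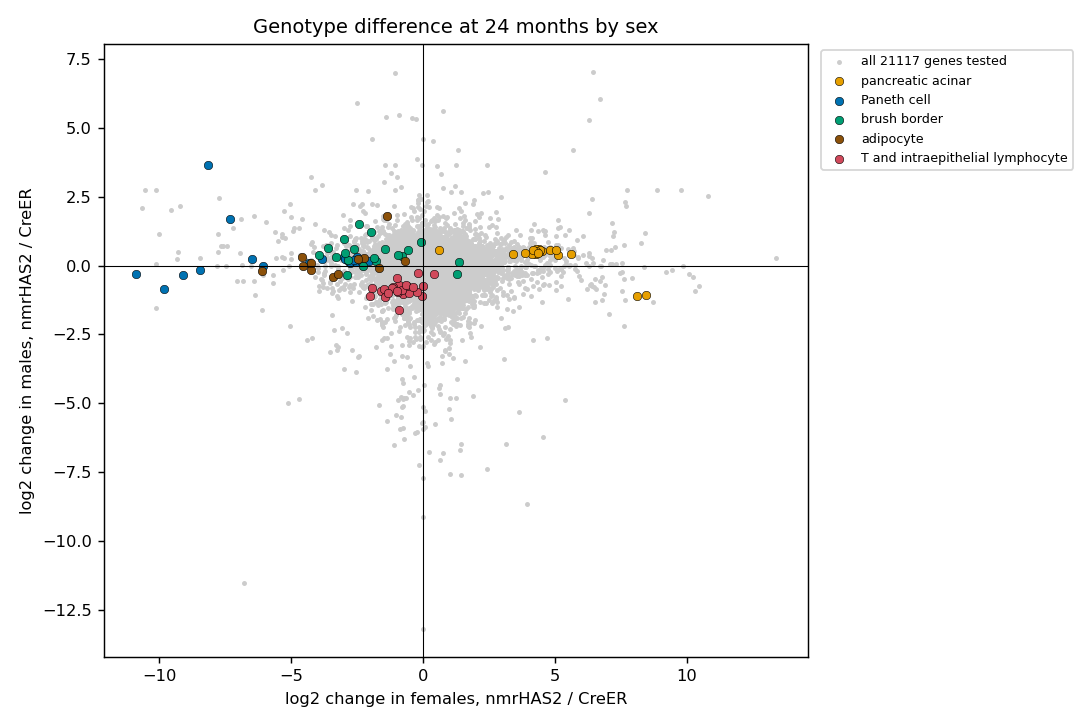
Log2 change, nmrHAS2 over CreER at 24 months, in females (horizontal axis) and males (vertical axis) for each gene tested, with 5 gene lists in colour. Paneth, brush border and adipocyte genes spread far to the left and acinar genes far to the right, and most of them lie within 1 of 0 in males; the T and intraepithelial lymphocyte genes lie mainly in the lower left, below 0 in males for 24 of 24 genes.

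The genes of the distal epithelium formed the part of the difference that rested on the 3 libraries with distal markers. Of 21 Paneth cell genes measured, 17 fell (1.65% of all genes fell), and 20 differed in genotype effect between the sexes (14.6% of all genes did). Their median change was -3.00 in females and 0.17 in males. Without male CreER library 2 or male nmrHAS2 library 1 the count of 17 was 10. Defa20, an alpha-defensin, stood at 1642, 2321 and 3634 CPM in female CreER and at 0.752, 1.72 and 5.71 in female nmrHAS2 libraries. In males the same gene ran from 3.93 to 14.1 CPM in CreER and from 2.83 to 6.71 in nmrHAS2, so that the groups overlapped at a level far under that of the distal libraries. Over both sexes Defa20 changed by -5.35 ± 0.51 (edgeR adjusted p = 7.95e-06), and its female and male changes differed by 8.99 (adjusted p = 5.2e-05).

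Other defensins repeated this form: Defa33, Defa21, Defa22, Defa29 and Defa40 changed by between -2.12 and -5.58 over both sexes and by between -0.35 and 0.24 in males. Alpha-defensin genes are near-identical copies, so the share of reads each one received is uncertain. Lyz1, the Paneth cell lysozyme, stood at 5766, 7519 and 6767 CPM in female CreER against 298, 1148 and 1479 in female nmrHAS2, with a male change of 0.09 ± 0.41. Nos2, the inducible nitric oxide synthase, was at 70.9, 165 and 253 CPM in female CreER and at 1.95 to 2.92 in female nmrHAS2. Its male change was -0.33 ± 0.99, and male CreER library 2 and male nmrHAS2 library 2 were high at 30.5 and 24.8 CPM.

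Enterocyte genes followed. Of 15 distal enterocyte genes 5 fell (1.65% of all genes fell) and 0 rose. Of the 5, Plb1 and Slc10a2 are markers by which the distal libraries were defined. Among the 12 members other than the 3 markers 3 fell, Tmigd1, Slc51b and Bcl2l15, with medians of -2.56 in females and 0.36 in males. Tmigd1, a brush border adhesion protein, was at 91.1, 96.0 and 106 CPM in female CreER against 0.282 to 0.815 in female nmrHAS2 and 0.0497 to 1.59 in all males. Slc51b, a subunit of the basolateral bile acid exporter, was at 102, 132 and 93.8 CPM in female CreER libraries and between 13.4 and 39.1 in the other 9. Of 20 brush border enzymes and transporters 5 fell, beside the same 1.65% of all genes. Among the 5 were the peptidases Dpp4 (-1.49 ± 0.36), Enpep (-1.51 ± 0.38), Anpep (-1.60 ± 0.43) and Mep1b (-1.31 ± 0.34, all edgeR adjusted p under 0.05). The brush border list had a median of -2.12 in females and 0.40 in males. The brush border count was 0 without male nmrHAS2 library 1 and 9 without male nmrHAS2 library 3. It was 1 without female CreER library 1 or 2, male CreER library 1 or male nmrHAS2 library 2, and 2 without female nmrHAS2 library 3, male CreER library 2 or male CreER library 3. The distal enterocyte count was 3 without male nmrHAS2 library 1 and 8 without female nmrHAS2 library 1 or male nmrHAS2 library 3. Gsdme, a pore-forming gasdermin, had the smallest p for a difference between the sexes: 46.9, 51.6 and 48.5 CPM in female CreER, 2.46 to 3.07 in female nmrHAS2, and 3.20 to 9.88 in males.

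The proximal enterocyte list did not move as a whole, with medians of -0.04 in females and 0.35 in males. Of its 15 genes 2 rose (3.23% of all genes rose), the transcription factor Onecut2 (1.39, edgeR adjusted p = 0.0061) and the iron exporter Slc40a1 (1.80, adjusted p = 0.016), each with a male change near 0 or lower (-0.19 and -0.33). Gata4, a transcription factor of the proximal intestine, read 0.20 (adjusted p = 0.66), and the 3 distal libraries held 41.1 to 52.0 CPM of it per library total. So the distal libraries carried the distal markers without being free of this proximal one.

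After the transgene, the largest rises among the named genes were in genes of the pancreas and colon, whose RNA share differed between the female groups as given above. Of 19 acinar genes 5 rose (3.23% of all genes rose), with medians of 4.41 in females and 0.50 in males. Pnliprp1, a pancreatic lipase-related protein, was at 1.46, 551 and 373 CPM in female CreER against 9324, 9870 and 11658 in female nmrHAS2. Its levels were 2990, 4659 and 10800 in male CreER and 11013, 12705 and 3354 in male nmrHAS2, where library 3 lay within the CreER range and the other 2 above it. The count of 5 moved with single libraries: to 16 without female CreER library 1, 8 without male nmrHAS2 library 3, 3 without female CreER library 2 or 3, 2 without female nmrHAS2 library 3 or male nmrHAS2 library 2, 1 without male CreER library 1, and 0 without male CreER library 2 or male nmrHAS2 library 1. Rnase1 (2.42 ± 0.56), Clps (1.92 ± 0.45), the regenerating protein Reg1 (2.51 ± 0.64) and the kallikreins Klk1b4 (4.23 ± 0.60) and Klk1b5 (3.58 ± 0.56) rose with them. The acinar score, the log2 of the summed CPM of 16 acinar genes, was 2.95 in female CreER library 1. It ran from 13.3 to 18.1 in the other intestine libraries of both ages, so fits with this score lean mainly on that 1 library. With the acinar score as a covariate Klk1b5 (1.84) and Pnliprp1 (0.97) were still called, whereas Reg1 (0.83), Klk1b4 (2.12), Rnase1 (1.22) and Clps (0.9996) were not. Pnliprp1 is itself part of the score, so its value is no independent check. The kallikrein genes are close copies of each other, so their counts are uncertain. Reg2 rose by 4.42 ± 1.26 (edgeR adjusted p = 0.0484), but its call was kept in 2 of 12 leave-outs and lost under the replicate block, and with the acinar score it was at 0.79. Mptx1 rose by 6.67 ± 1.82 (edgeR adjusted p = 0.0409) through 1 library: without female nmrHAS2 library 1 the change was 1.06, and its call was kept in 2 of 12 leave-outs and lost under the block. In the other direction, 3 of 12 adipocyte genes fell (1.65% of all genes fell), Fabp4, the adipokine Lep and the lipid droplet protein Plin1. They fell through female CreER libraries 2 and 3, where Fabp4 was at 306 and 348 CPM against 13.6 to 31.5 elsewhere. The adipocyte count of 3 was 6 without female CreER library 1, and 1 without female CreER library 2, male CreER library 3, male nmrHAS2 library 1 or male nmrHAS2 library 2.

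Changes carried by every library were few. A gene was called apart in both sexes when, within each sex, every nmrHAS2 library lay on the same side of every CreER library. Of the 1031 called genes, 72 met this rule (0.341% of genes tested), 19 higher and 53 lower in nmrHAS2. Over all genes tested, 133 (0.63%) were apart in both sexes, and in males alone 1972 (9.34%) were, of which 767 (3.63%) were apart higher and 1205 (5.71%) apart lower. Among the 72, the genotype effect differed between the sexes for 5 (14.6% of all genes did), and 30 had a mean under 2 CPM. An unadjusted male p under 0.05 was found for 40 (6.18% of all genes had one). The rule asks for male libraries apart and the same direction in both sexes, so it favours low male p-values and few sex differences. The count of 72 was 40 without female CreER library 2 and between 132 and 451 without female nmrHAS2 library 2, male CreER libraries 1 or 3, or male nmrHAS2 libraries 2 or 3. It was 69 and 72 without female CreER libraries 1 and 3, and 106 and 51 without female nmrHAS2 libraries 1 and 3. Without male CreER library 2 it was 54, and without male nmrHAS2 library 1 it was 60. Each leave-out also leaves fewer libraries that must lie apart, and the part of this in the counts was not tested. At 6 months the 72 genes had a median change of -0.04, in which rises and falls are pooled and can cancel. At that age 3 of them had an unadjusted p under 0.05, the transgene, Cep85 and Cfap126, beside 2.63% of all genes.

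T cell genes had nearly the same median change in males as in females. Of 24 T and intraepithelial lymphocyte genes 10 fell and 0 rose, against 1.65% of all genes. The median change was -0.87 in both sexes together, -0.92 in females and -0.86 in males, beside 0.03, 0.05 and 0.01 for all genes. The male estimate was below 0 for 24 of 24 genes, with an unadjusted p under 0.05 for 13 (3.72% of all genes were lower at that threshold). The libraries of the males were apart lower for 7 (5.71% of all genes were). In males alone 0 were called by edgeR or by DESeq2. The genotype effect differed between the sexes for 0 of 24 by edgeR, for 0 by DESeq2 and for 0 at an unadjusted p under 0.05. Other cell type lists also had male medians below 0 with 0 genes called in males: B and plasma cells at -0.40 (16 of 18 estimates below 0), tuft cells at -0.44 (8 of 11) and endothelium at -0.35 (14 of 16, 4 apart lower, beside the same 5.71% of all genes). In females these 3 lists were at -0.02, -0.28 and 0.07. Their part in the lymphocyte result was not tested. Summed over the lymphocyte list, female CreER libraries stood at 218, 188 and 172 CPM and female nmrHAS2 libraries at 45.1, 106 and 91.2. In males the sums were 174, 223 and 380 in CreER and 144, 122 and 156 in nmrHAS2, again with no overlap.

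The levels of single members follow, of which Gzmb and Cd3g were named because their libraries were apart in both sexes. Gzmb, the cytotoxic protease granzyme B, was at 20.4, 24.2 and 19.97 CPM in female CreER and at 3.32, 5.13 and 7.46 in female nmrHAS2. In males it was at 13.8, 17.1 and 29.6 against 10.6, 6.90 and 10.8. It fell by 1.55 ± 0.36 on the log2 scale (edgeR adjusted p = 0.0203), with male CreER library 3 the highest of all. Cd3g, a chain of the T cell receptor complex, was at 10.97, 9.35 and 7.39 against 1.72, 4.07 and 3.47 CPM in females and at 7.94, 6.77 and 14.1 against 5.26, 4.21 and 5.72 in males. Its change was -1.25 ± 0.26 (edgeR adjusted p = 0.0111). Both calls held when any 1 of the 12 libraries was left out. With the acinar score as a covariate neither was called (edgeR adjusted p = 0.078 for Gzmb and 0.085 for Cd3g).

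Cd247, the signalling zeta chain of the receptor, changed by -0.95 ± 0.22 (edgeR adjusted p = 0.0188), and its call was lost without male nmrHAS2 library 1. Lat, the adaptor beneath the receptor, changed by the same -0.95 ± 0.24 (adjusted p = 0.0299), in females and males alike (-0.95 and -0.95), but its call was lost in 5 of 12 leave-outs. The other members called lower were Cd5, Cd8a, Cd8b1, Gzma, Itgae and Prf1, with changes between -0.84 and -1.37. Itgae, the integrin that holds lymphocytes in the epithelium, stood at 24.4, 33.9 and 60.1 CPM in male CreER and at 21.5, 21.8 and 20.7 in male nmrHAS2. Itgae was not apart in females, where nmrHAS2 library 2 at 16.8 overlapped CreER library 3 at 16.7. Eomes was the member nearest to no change, at 0.06.

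How many of the list were called depended on single libraries, while the median moved little with them. Between 3 and 16 genes were called when 1 library was left out, with medians of -0.67 to -1.02. The fewest calls, 3, came without female CreER library 1, female CreER library 2 or male CreER library 3. Calls also dropped to 4 without male CreER library 2 or male nmrHAS2 library 1 and to 5 without male nmrHAS2 library 2, and rose to 16 without female nmrHAS2 library 2. Without female nmrHAS2 library 1, which carries colon genes, 10 genes were called at a median of -0.72. With the acinar score as a covariate 0 were called, at a median of -0.81 and a male median of -0.88. That fit leans mainly on female CreER library 1, whose score lies far below all others. In the 12 old libraries alone 3 were called, at -0.92. Without the 3 distal libraries, which leaves the male contrast, the median was -0.85 and 0 were called. With the distal score as a covariate 1 was called, at a median of -2.10.

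**Figure D3:**
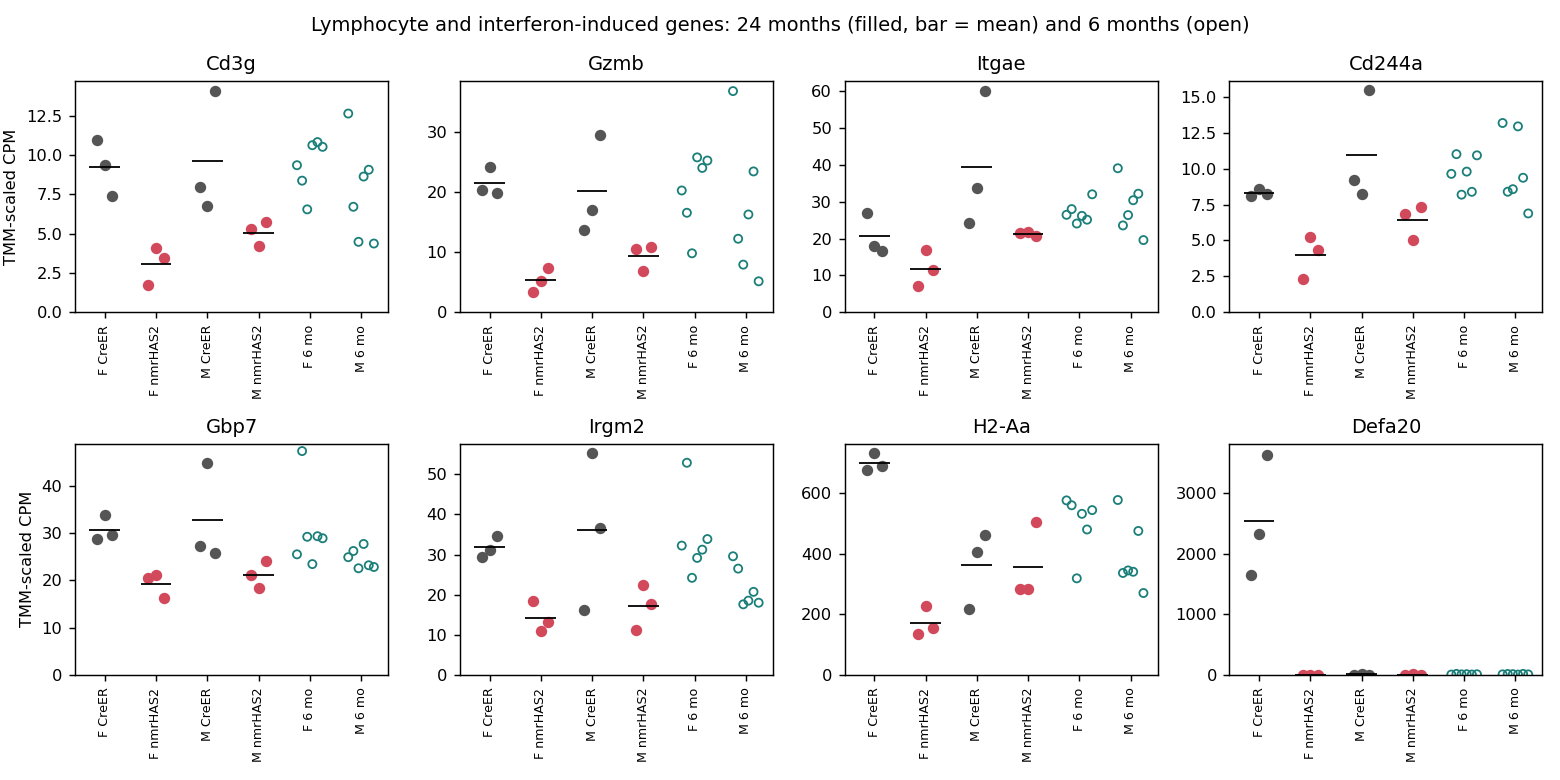
Levels of lymphocyte genes (Cd3g, Gzmb, Itgae, Cd244a), interferon-induced genes (Gbp7, Irgm2), the class II gene H2-Aa and the defensin Defa20, in TMM-scaled CPM on linear axes from 0. Each point is 1 library, grey for old CreER, red for old nmrHAS2 and open for 6 months with both genotypes, and bars are means of 3. Cd3g, Gzmb, Cd244a and Gbp7 are lower in nmrHAS2 with no overlap in either sex, H2-Aa is lower in females alone, and Defa20 is high only in the 3 old female CreER libraries.

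Among the 53 genes called lower and apart in both sexes, the largest falls at 2 CPM or more after Gzmb were Rhbg (-1.36 ± 0.29), an ammonium transporter, and Prkar2b (-1.35 ± 0.27), a regulatory subunit of protein kinase A. Rhbg was at 8.23, 5.51 and 6.64 against 1.10, 1.48 and 2.74 CPM in females and at 2.47, 3.46 and 4.10 against 1.39, 2.08 and 2.28 in males. Prkar2b in females rested mainly on CreER libraries 2 and 3, at 23.1 and 25.8 CPM, the libraries with the most fat cell RNA, and CreER library 1 at 4.88 lay just above the highest nmrHAS2 library at 4.61. Apol10b (-1.26 ± 0.25) and Apol7e (-0.94 ± 0.22), members of the apolipoprotein L family, and Edn2 (-1.19 ± 0.26), an endothelin peptide, followed. For Prkar2b and Apol10b the effect was larger in females than in males (edgeR adjusted p of the difference 0.050 and 0.034).

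Cd244a, a receptor of natural killer and cytotoxic T cells, was at 8.11, 8.61 and 8.24 against 2.32, 5.26 and 4.35 CPM in females. In males Cd244a was at 9.19, 8.20 and 15.4 against 6.85, 5.06 and 7.35, and it fell by 0.92 ± 0.21 (edgeR adjusted p = 0.0167). Adgrg5, an adhesion G protein-coupled receptor, changed alike in females (-0.83) and males (-0.76), with male CreER libraries at 8.42, 8.43 and 9.40 and male nmrHAS2 libraries at 5.26, 5.06 and 5.17. AI504432, a non-coding transcript, had the lowest male p of these 10 falls at 0.00016, with 5.06, 7.52 and 5.70 against 3.82, 2.46 and 3.04 CPM. Of further genes in this group, chosen after their values were seen, Ptprc, Fasl, Slamf1, Gimap6 and Lair1 encode leukocyte proteins: CD45, Fas ligand, a lymphocyte surface receptor, a lymphocyte GTPase and an inhibitory receptor. Apol7e and Adgrg5 lost their calls without male nmrHAS2 library 1, and the other 8 of these 10 falls kept theirs in each of 12 leave-outs. Other settings removed more of these calls. With the acinar score as a covariate only Prkar2b and AI504432 were still called, and with the distal score only Apol10b. In the old libraries alone Gzmb, Rhbg, Cd3g, Edn2 and AI504432 were called. Without the distal libraries none of the 10 was called.

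The interferon-induced genes lay close to the lymphocyte genes in direction but varied more between libraries. Of 29 interferon response genes 7 fell (1.65% of all genes fell) and 0 rose, with medians of -0.55 in both sexes together, -0.88 in females and -0.37 in males. In males 24 of 29 estimates were below 0, and 8 genes were lower at an unadjusted p under 0.05 (3.72% of all genes were). The male libraries were apart lower for 2, Gbp7 and Gbp8, a share close to the 5.71% of all genes. The called genes included the transcription factor Irf8, the guanylate-binding proteins Gbp6 and Gbp7 and the immunity-related GTPases Iigp1, Igtp and Irgm2. Of the members not called, Ifit1 was at -0.46, Isg15 at -0.57 and Oas1a at 0.25. In the 12 old libraries alone, with the acinar score as a covariate and without the distal libraries 0 members were called, at medians of -0.57, -0.51 and -0.37. With the distal score 2 were called higher and 0 lower, at a median of -0.02.

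Irgm2 was at 29.4, 31.3 and 34.7 CPM in female CreER and at 18.3, 11.01 and 13.1 in female nmrHAS2. In males it was at 16.1, 55.4 and 36.6 against 11.3, 22.5 and 17.8, so that male CreER library 1 lay within the nmrHAS2 range and library 2 far above it. It fell by 1.12 ± 0.25 on the log2 scale (edgeR adjusted p = 0.0149), and alike in the sexes (-1.17 and -1.07). Iigp1, an immunity-related GTPase, was at 51.2 CPM in male CreER library 2 and at 8.76 to 21.7 in the other male libraries. Without that library 1 of the 29 genes was called, as also without male nmrHAS2 library 1, and Irgm2 and Iigp1 lost their calls; without female nmrHAS2 library 1 the count was 11. Without female CreER library 2 the count was 4.

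The promoters of 4 of these falling genes are shown because the 3 GTPase genes hold both elements through which interferon signals are known to act. They are the 150 bases before the transcription start in RefSeq on GRCm38.p6, on the plus strand and read 5′ to 3′: chr3:142530186-142530335 for Gbp7, chr11:58214827-58214976 for Irgm2, chr11:58199406-58199555 for Igtp and chr15:77698739-77698888 for Apol7e. Capitals mark GAAANNGAA, the core of the interferon-stimulated response element, and TTCNNNGAA, the gamma-activated site, on either strand. In Apol7e a pair of response element matches overlap and are drawn as 1 run.
Gbp7: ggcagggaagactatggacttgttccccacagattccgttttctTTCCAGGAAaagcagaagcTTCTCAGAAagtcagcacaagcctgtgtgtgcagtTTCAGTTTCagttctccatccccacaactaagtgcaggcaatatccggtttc
Irgm2: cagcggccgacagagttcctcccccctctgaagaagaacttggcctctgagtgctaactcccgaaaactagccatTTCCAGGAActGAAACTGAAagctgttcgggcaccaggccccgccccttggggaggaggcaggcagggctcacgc
Igtp: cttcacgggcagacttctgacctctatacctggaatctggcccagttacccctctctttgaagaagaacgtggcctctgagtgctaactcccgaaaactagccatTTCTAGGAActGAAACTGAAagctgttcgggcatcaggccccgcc
Apol7e: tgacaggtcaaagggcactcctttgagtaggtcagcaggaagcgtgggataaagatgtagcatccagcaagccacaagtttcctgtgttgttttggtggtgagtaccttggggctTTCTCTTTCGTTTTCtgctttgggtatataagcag

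In the 250 bases before the start, GAAANNGAA occurred in 15 of the 22 interferon response genes with a RefSeq promoter (68.2%). It occurred in 7.16% of all 27025 promoters and in 6.58% of those of genes tested. TTCNNNGAA occurred in 8 of the 22 (36.4%), against 7.18 and 6.24%. The list holds genes known for their interferon response, called or not, so these shares describe the list and not which members fell. Isg15, Ifit1 and Oas1a hold GAAANNGAA and were not called. Among the 53 genes that were called lower and apart in both sexes, 41 had a promoter in the table, and 6 (14.6%) held GAAANNGAA and 5 (12.2%) TTCNNNGAA. In Irgm2 and Igtp the gamma-activated site and the response element lie side by side, 75 and 64 bases before the start in Irgm2 and 45 and 34 in Igtp, whereas in Gbp7 they lie apart, at 106, 87 and 52 bases. A match is a match of letters, and binding was not measured.

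Gbp7, a guanylate-binding protein, was the 1 gene of the 29 called and apart in both sexes. Gbp9, a related protein outside the list and chosen after its values were seen, also was, with a change of -0.72 and a male change of -0.73. For Gbp7 the levels were as follows. It was at 28.7, 33.9 and 29.6 CPM against 20.4, 21.1 and 16.3 in females and at 27.3, 44.8 and 25.8 against 21.1, 18.3 and 24.1 in males. The change was -0.65 over both sexes and -0.62 in males (unadjusted p = 0.0096). Igtp had the largest change of the called interferon genes, -1.49 over both sexes and -1.38 in males.

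Antigen presentation genes had larger changes in females than in males. Of 11 class II presentation genes 6 fell (1.65% of all genes fell), with medians of -1.36 in females and -0.36 in males. The effect differed between the sexes for 4 of the 11 (14.6% of all genes did). H2-Aa, a class II alpha chain, was at 677, 734 and 689 CPM in female CreER against 134, 227 and 155 in female nmrHAS2. In males H2-Aa was at 218, 405 and 464 against 284, 284 and 505, overlapping, with a change of -0.02 ± 0.32. H2-DMa (-0.99 ± 0.20, male -0.36) and H2-DMb1 (-1.07 ± 0.23, male -0.08) also differed in effect between the sexes, whereas for H2-Eb1 (-0.90 ± 0.18, male -0.42) that difference was not called.

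Of 16 class I presentation genes 6 fell, beside the same 1.65%, among them the peptide transporter Tap1 (-0.91 ± 0.21), the immunoproteasome subunits Psmb8 (-0.73 ± 0.20) and Psmb9 (-0.79 ± 0.22) and the proteasome activator Psme1 (-0.59 ± 0.12). The list medians were -1.08 in females and -0.20 in males, where 12 of 16 estimates were below 0. Psme1 kept its call in 12 of 12 leave-outs, Psmb9 in 4. Of the class I list, 1 gene was called without female CreER library 1, without male CreER library 2 and without male nmrHAS2 library 1, 3 without female nmrHAS2 library 1, and 2 without female CreER library 2, female nmrHAS2 library 3 or male CreER library 3, whereas 9 were called without male nmrHAS2 library 3. Of the class II list, 3 were called without male nmrHAS2 library 1. In both lists 0 genes were called in the old libraries alone, with the acinar score, with the distal score and without the distal libraries, where the class I medians were -0.66, -0.61, -0.83 and -0.19 and the class II medians -0.83, -0.74, -1.59 and -0.36.

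**Figure D4:**
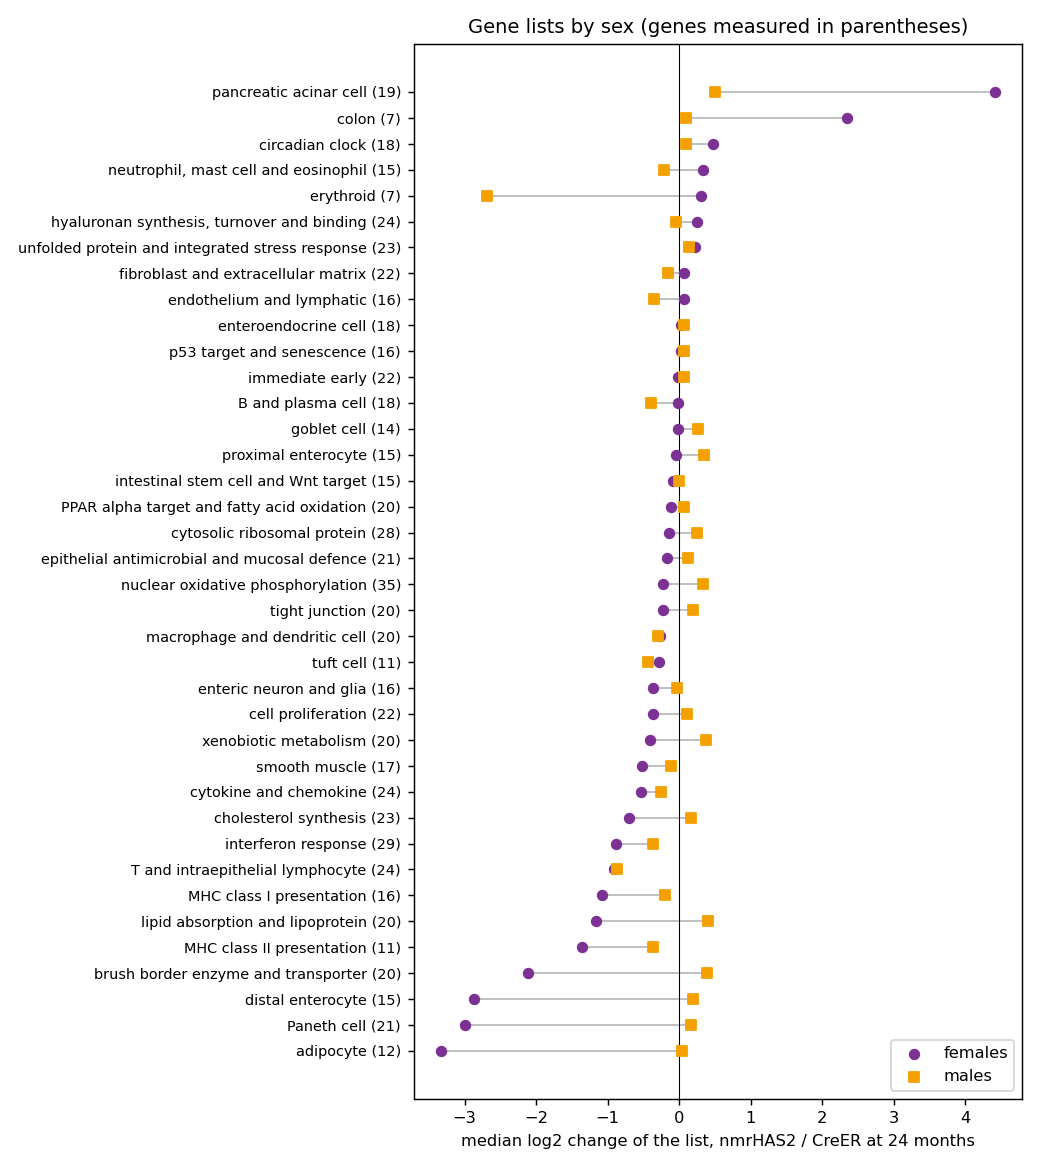
Median log2 change of each gene list, nmrHAS2 over CreER at 24 months, in females (circles) and in males (squares), ordered by the female value. The sexes lie far apart for adipocyte, Paneth, distal enterocyte, brush border and acinar lists, and lie together near -0.9 for T and intraepithelial lymphocytes (-0.92 and -0.86).

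Genes that rose in every library were fewer. Among those with a mean of at least 2 CPM the largest after the transgene was Retreg1, a receptor that sends endoplasmic reticulum to autophagy. It was at 30.0, 35.2 and 35.3 CPM in female CreER against 228, 78.7 and 126 in female nmrHAS2, and at 66.9, 40.4 and 81.0 against 142, 86.5 and 94.3 in males. It rose by 1.44 ± 0.22 on the log2 scale (edgeR adjusted p = 0.0014), kept its call in 12 of 12 leave-outs, and rose more in females (2.11 against 0.78 in males, adjusted p of the difference 0.046). At 6 months its change was -0.35, and the effect differed between the ages (adjusted p = 0.0065).

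The other 8 named rises lay between 0.32 and 0.59 on the log2 scale. They were Arhgef26, a guanine nucleotide exchange factor, Ip6k2, an inositol hexakisphosphate kinase, Phf21b, the zinc finger repressor Zbtb33, the microtubule-associated Mtus1, Mettl26, the centrosomal Cep85, and Rev3l, the catalytic subunit of DNA polymerase zeta. Rev3l was at 35.9, 43.7 and 46.9 against 63.3, 54.7 and 58.5 CPM in females and at 58.5, 55.9 and 53.1 against 63.5, 61.7 and 62.1 in males, a male change of 0.16 with an unadjusted p of 0.22. Most of these calls depended on single libraries: Phf21b kept its call in 10 of 12 leave-outs, Ip6k2 in 8, Cep85 in 6, Zbtb33 in 5, Arhgef26 and Mtus1 in 4, Rev3l in 3 and Mettl26 in 2.

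Of 24 genes of hyaluronan synthesis, turnover and binding, 3 rose (3.23% of all genes rose) and 0 fell: Has2, Hapln4 (1.58 ± 0.35), a link protein, and Ambp (1.64 ± 0.42), the precursor of the bikunin that carries heavy chains to hyaluronan. Hapln4 was at 0.401, 0.769 and 0.260 against 1.10, 3.20 and 4.35 CPM in females and at 1.93, 1.92 and 4.10 against 4.47, 4.21 and 2.64 in males. Both genes differed in effect between the sexes (edgeR adjusted p = 0.048 for each), with male changes of 0.52 and 0.38, and neither was called with the acinar score as a covariate. The list's median was 0.01.

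The lists for epithelial renewal and barrier showed few calls, beside 3.23% of all genes higher and 1.65% lower. Of 15 stem cell and Wnt target genes 1 rose, the progenitor and Paneth cell factor Sox9 (0.90, edgeR adjusted p = 0.031, male 0.03), and Lgr5, which marks the stem cells of the crypt base, read -0.48 (adjusted p = 0.22). For 22 proliferation genes, 20 tight junction genes and 16 p53 target and senescence genes edgeR called 0, and DESeq2 called 0, 1 and 0. At an unadjusted p under 0.05, 1 proliferation gene was higher, 2 tight junction genes were higher and 1 lower, and 1 p53 or senescence gene was higher and 1 lower. Their medians were -0.36, -0.23 and 0.02 in females and 0.10, 0.19 and 0.06 in males. Of 14 goblet cell genes 2 rose, Klk1, which the acinar pancreas also makes, and Creb3l1, with male changes of 0.63 and 0.08, while the mucin Muc2 read -0.18. Of 24 cytokines and chemokines, Il18 alone was called (0.93, edgeR adjusted p = 0.049), with a male estimate of 0.74, and Ifng, the gene of interferon gamma, read -1.49 (adjusted p = 0.15).

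At 6 months the same contrast called 1 gene by edgeR, the transgene (0.00474%), with 556 genes (2.63%) at an unadjusted p under 0.05 and 2 by DESeq2. None of the 12 libraries of that age held distal markers. The 24 lymphocyte genes had a median of -0.04 there, with 16 estimates below 0, and the interferon list a median of -0.14. The genotype effect differed between the ages for 333 genes (1.58%), 1.25% with the higher and 0.327% with the lower change at 24 months. In the lymphocyte list edgeR called 0 of these differences and DESeq2 called 4, all lower at 24 months. Over all 21117 genes DESeq2 called 165 lower. At an unadjusted p under 0.05, 10 of the list were lower, and the share of all genes at that threshold is not given here. In the interferon list both tools called 0, and 8 had an unadjusted p under 0.05, again without a share of all genes beside it. Of the 10 named falls that were apart in both sexes, Rhbg was the one with a called difference between ages (adjusted p = 0.044).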

How the data were processed

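RNA of frozen tissue was sequenced by the authors. The submitters' processing notes name Trim Galore 0.6.5 and Salmon 1.4.0. The authors deposited expected counts for 40946 genes, rounded here to integers, and 39779 of the gene symbols were found in GENCODE M21. Genome build and annotation: not given in the sources used here. Every column belonged to a sample (0 did not). The 24 intestine libraries were fitted with edgeR 4.0.16 in R 4.3.3: 8 group means of age, sex and genotype, TMM scaling, filterByExpr, the quasi-likelihood F test, 2-sided p adjusted by Benjamini and Hochberg over 21117 genes, threshold 0.05. Sexes were weighted equally. A standard error (SE) is the size of the change over the root of its F. DESeq2 1.42.0 was an alternative. The test was checked on simulated counts of 20791 genes. Totals of 25316693 to 82501800 counts limit the precision of low genes. In 24 pairs of libraries of the same group, 0 were identical.

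A library was called distal with at least 10 CPM of 2 of the 3 markers Fabp6, Slc10a2 and Plb1. The distal score was the mean log2 CPM of these 3 markers after adding 0.1 CPM. The acinar score was the log2 of the summed CPM of the 16 acinar genes. Genes that are part of a score are adjusted for themselves in fits with it. The members and gene lists were chosen with earlier results of these data known. Named genes were the transgene, Has2 and the 3 markers; the 10 largest rises and falls among called genes apart in both sexes with a mean of at least 2 CPM; the 4 largest rises and falls of the other called genes with the same sign in both sexes; up to 4 members of each list with at least 3 calls; and the 5 genes with the smallest p between sexes, leaving out Gm-number, Rik and similar symbols, pseudogenes, receptor segments and sex-linked marker genes. Genes named outside these rules come from the lists or were chosen after their values were seen. Sycn was left out of the colon genes because acinar cells make it. Promoters are from RefSeq, matched by symbol: 13853 of the genes tested had an entry. Alternatives were RLE scaling, no filter, DESeq2, a replicate block, the old libraries alone, library kind (whole or fractional counts) as a term, the distal score and acinar score as covariates, leaving out the distal libraries, and leaving out each library. The acinar covariate and the fit of the old males alone were chosen after seeing the data.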

Additional observations from a re-analysis of the deposited data

Results flagged for a closer look

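The genotype effect differed between the sexes for 35 of the 67 named genes by edgeR's interaction contrast (adjusted p under 0.05). Some of these genes were named for that difference or as markers of the distal libraries, so their number is no measure of how common it was. Values are male minus female log2 change at 24 months. For distal epithelium and Paneth cell genes they were Slc10a2 3.33, Plb1 8.60, Tmigd1 8.29, Slc51b 3.06, Dpp4 4.25, Enpep 3.60, Mep1b 3.04, Lyz1 2.87, Nos2 5.74, Gsdme 4.68, Defa20 8.99, Defa21 8.74, Defa22 8.28, Defa29 4.43, Defa33 10.59, Defa40 5.26. For acinar, kallikrein and regenerating genes they were Klk1b4 -6.01, Klk1b5 -5.02, Reg1 -4.23, Rnase1 -3.90, Clps -2.99, Pnliprp1 -4.51, Prss1 -9.22. For adipocyte genes they were Fabp4 2.92, Lep 5.89, Plin1 3.01. For antigen presentation genes they were H2-DMa 1.26, H2-DMb1 1.98, H2-Aa 2.01, Psme1 0.78. For genes apart in both sexes they were Prkar2b 1.63, Apol10b 1.61, Retreg1 -1.33. For hyaluronan-binding genes they were Hapln4 -2.11, Ambp -2.51. All 3 old female CreER libraries held distal markers and little acinar RNA, and the part of either in these differences was not tested.

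The effect differed between the ages for 19 of the named genes. Values are the log2 change at 24 minus that at 6 months. Among distal epithelium and Paneth cell genes they were Plb1 -5.81, Tmigd1 -4.12, Slc51b -1.80, Nos2 -5.00, Gsdme -1.84, Defa20 -5.17, Defa21 -4.70, Defa22 -4.35, Defa29 -2.02, Defa33 -5.40, Defa40 -2.26. Among acinar, kallikrein and regenerating genes they were Klk1b4 4.29, Klk1b5 4.03, Rnase1 3.81, Clps 3.33, Pnliprp1 3.98. Among genes apart in both sexes they were Retreg1 1.80, Rhbg -1.64, Cep85 0.76.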

How the results depend on the processing

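Counts of called genes are given over both sexes, in females, in males, for the difference between sexes, at 6 months, for the difference between ages, and called and apart in both sexes: 1031, 5295, 1, 3088, 1, 333 and 72. RLE scaling, no filter, library kind as a term and the replicate block (951 over both sexes) kept each within 1.5 times. DESeq2 gave 1788 over both sexes, 14 in males, 2 at 6 months and 699 between ages. The 12 old libraries alone gave 160, 2747, 0, 123 between sexes and 15 apart. That fit has fewer samples and takes the spread from old libraries only, and the part of either in the lower counts was not tested. The distal score as a covariate gave 326, 409 in females, 364 between sexes, 189 between ages and 6 apart. The acinar score gave 204, 756 in females, 299 between sexes, 39 between ages and 14 apart. Of the 1031 genes, 41 were also called with the distal score, 145 with the acinar score and 159 in the old libraries alone; the cause was not tested. Without the distal libraries 1 gene, the transgene, was called and apart, and the old male libraries alone called 0. Leaving out 1 library gave 383 to 2018 over both sexes, 3240 to 6870 in females, 1 to 2 in males, 1295 to 5349 between sexes, 1 to 1 at 6 months, 179 to 897 between ages and 40 to 451 apart.

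Without the distal libraries, and in the old males alone, the sign turned for Tmigd1 (0.68 and 0.67), Slc51b (0.21 and 0.21), Defa29 (0.096 and 0.092), Dpp4 (0.65 and 0.65), Enpep (0.31 and 0.31), Mep1b (0.22 and 0.22), Lyz1 (0.096 and 0.092), Prss1 (-1.08 and -1.09), Gsdme (0.51 and 0.51) and Defa40 (0.24 and 0.24), which these settings bring about by leaving out the females of 1 or both genotypes. With the distal score as a covariate the sign turned for Fabp6 (6.20) and Slc10a2 (0.98). Both genes are part of that score, so their values with it are no separate result. The sign also turned for Prkar2b (0.34), Arhgef26 (-0.58), Ip6k2 (-0.33), Cep85 (-0.22), Hapln4 (-0.94) and Prss1 (-2.66), and for these the cause was not tested.

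Libraries of the same number deviated together with correlations of 0.10, 0.00078 and 0.39 in females and -0.04, 0.36 and -0.02 in males. Libraries of different number were not correlated, so these values do not settle whether the numbers pair them. The replicate block moved no count past 1.5 times, and 6 of the 67 named genes lost their call under it. Leaving out every library with at least 100 CPM of acinar genes could give no value, since 23 of 24 hold that much. Depth limits low genes: of the 72 genes apart in both sexes, 30 lay under 2 CPM.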

Other observations

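In the males, where no library held distal markers, the 35 nuclear genes of oxidative phosphorylation measured had a median change of 0.33 on the log2 scale, beside 0.01 for all genes, and 0 of 35 estimates were below 0. Other lists had male medians above 0 as well: brush border 0.40, lipid absorption 0.41, xenobiotic metabolism 0.37, proximal enterocyte 0.35 and cytosolic ribosomal proteins 0.25 (1 of 28 estimates below 0). Their part in the result was not tested. The libraries were apart higher for 8 oxidative phosphorylation genes (3.63% of all genes were), among them Ndufb5 (0.50, unadjusted p = 0.011), a subunit of complex I, and Uqcrc2 (0.51, unadjusted p = 0.018), of complex III. In females the list's median was -0.23. The effect differed between the sexes for 4 genes by edgeR (14.6% of all genes did) and for 11 by DESeq2 (4162 of 21117 genes did). In males 0 genes were called by either tool, and 11 were higher at an unadjusted p under 0.05 (2.45% of all genes were). The summed list was at 4570, 3992 and 3982 CPM in male CreER libraries and at 4072, 5067 and 6522 in male nmrHAS2 libraries, so the groups overlapped and nmrHAS2 library 3 was the highest. That library also held the smallest acinar share of the male libraries (6.10%), and the part of this share in the result was not tested.

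Of 20 macrophage and dendritic cell genes edgeR called 0 over both sexes and DESeq2 called 1 higher. At an unadjusted p under 0.05, 8 were lower, and the share of all genes at that threshold is not given here. In males the libraries were apart lower for 9 of them (5.71% of all genes were), including Csf1r, the receptor for macrophage colony-stimulating factor (-0.54, unadjusted p = 0.023), and Cx3cr1, the fractalkine receptor (-0.72, unadjusted p = 0.015). The male median was -0.29 and the female median -0.27.

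The 7 erythroid genes measured had a male median of -2.69 and a female median of 0.31. Their sum was 160.1 CPM in male CreER library 1 and 2.71 to 23.9 in the other male libraries, so the male difference rested mainly on 1 library.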
